A study of Mus musculus with 12 samples.

Results

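The small nuclear and nucleolar RNAs of H9c2 myoblasts were described over 12 RNA-seq libraries. A gene was taken as a member when its deposited biotype was snoRNA, scaRNA or snRNA and its FPKM was above 0 in at least 3 of the 12 libraries. Members were thus chosen by whether reads were present, over all groups together, and not by a difference between groups. The rule left out Rn7sk, the RNA of the 7SK particle. It held for 360 of the 2943 annotated genes of these biotypes, namely 189 of 1507 snoRNAs, 17 of 51 scaRNAs and 154 of 1385 snRNAs. H9c2(2-1) is a single established wild-type heart myoblast line, which the study describes as rat, while GEO lists the organism as Mus musculus and every gene here is a mouse annotation. The 4 groups had 3 libraries each. Unt were untreated cells, DOX received doxorubicin, an anthracycline that binds DNA and blocks topoisomerase II, D_DXZ received doxorubicin with dexrazoxane, an iron chelator and topoisomerase II inhibitor given against anthracycline heart injury, and D_MgHCF received doxorubicin with magnesium hexacyanoferrate nanocatalysts. Cells were exposed for 6 h, and the doses used for the sequenced cells were not given in the sources used here. Nothing says that the libraries of a group came from separate cultures, so the p-values measure the spread between these libraries, which may be technical.

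Small nucleolar RNAs guide the modification of other RNAs. Box C/D snoRNAs direct ribose methylation and box H/ACA snoRNAs direct pseudouridylation, mostly of ribosomal RNA, and both are as a rule cut out of the introns of host genes after splicing. Small Cajal body RNAs (scaRNAs) carry the same boxes and guide modification of the spliceosomal snRNAs. The snRNAs U1, U2, U4, U5, U6, U11 and U12 form the cores of the spliceosomes, and each has many near-identical copies and pseudogenes in mammalian genomes. Mature RNAs of all 3 biotypes carry no poly(A) tail in general, and the libraries were made from RNA bound to poly-T beads. Most members are also shorter than the 150-base reads. A read counted to a member can therefore come from the mature RNA, from an unspliced host intron or from a longer transcript through the locus, and these cannot be told apart here.

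The sequences below are those of members whose levels carry the results, each 5′ to 3′ on the transcribed strand in GRCm38, read from the GENCODE M21 transcripts. Capitals mark the C box (TGATGA) and the D box (CTGA) in C/D snoRNAs, the ACA near the end in H/ACA snoRNAs and the Sm site letters in the snRNAs. Of Scarna2, which has 414 bases, the last 150 are shown. The C box was searched by exact letters and only near the 5′ end, and the D box only near the 3′ end. In Scarna2 and Gm24494, where this search found no full pair of boxes, capitals mark only a CTGA near the end, and Gm25047 has none. The TGATGA within the part of Scarna2 shown lies outside the stretch searched and is left in lower case.
Scarna2: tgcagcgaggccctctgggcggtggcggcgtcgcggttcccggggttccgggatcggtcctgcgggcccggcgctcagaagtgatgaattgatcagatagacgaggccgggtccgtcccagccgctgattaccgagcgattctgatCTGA
Snora47: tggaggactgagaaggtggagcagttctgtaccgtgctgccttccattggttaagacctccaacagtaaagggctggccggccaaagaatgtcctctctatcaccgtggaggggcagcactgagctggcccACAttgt
Gm22661: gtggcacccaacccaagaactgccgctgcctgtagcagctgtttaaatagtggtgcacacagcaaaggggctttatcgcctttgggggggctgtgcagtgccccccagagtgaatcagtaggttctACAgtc
Gm23823: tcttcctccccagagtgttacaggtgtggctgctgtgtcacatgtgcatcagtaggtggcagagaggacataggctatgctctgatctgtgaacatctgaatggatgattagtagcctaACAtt
Snord104: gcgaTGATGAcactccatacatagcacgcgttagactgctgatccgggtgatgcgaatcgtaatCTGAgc
Snord49a: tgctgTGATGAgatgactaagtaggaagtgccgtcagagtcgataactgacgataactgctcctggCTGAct
Gm24494: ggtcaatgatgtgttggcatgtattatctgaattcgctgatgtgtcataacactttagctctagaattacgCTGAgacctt
Snora31: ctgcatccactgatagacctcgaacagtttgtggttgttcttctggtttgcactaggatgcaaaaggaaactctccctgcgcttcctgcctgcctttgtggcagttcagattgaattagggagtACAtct
Rnu1a1: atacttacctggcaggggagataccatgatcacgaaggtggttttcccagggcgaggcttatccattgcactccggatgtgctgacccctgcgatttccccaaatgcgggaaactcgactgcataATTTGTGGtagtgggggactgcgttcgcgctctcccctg
Rnu12: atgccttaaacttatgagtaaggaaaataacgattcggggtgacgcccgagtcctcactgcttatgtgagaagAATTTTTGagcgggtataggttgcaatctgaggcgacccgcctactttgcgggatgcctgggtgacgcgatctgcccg
Gm25047: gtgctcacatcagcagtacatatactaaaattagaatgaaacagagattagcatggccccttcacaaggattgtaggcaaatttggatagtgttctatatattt

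Scarna2 lies between genes (chr3:108554338-108554751, minus strand), and so do Snord104 (chr11:106500993-106501062, plus strand), Rnu12 (chr15:83149644-83149794, plus strand) and Gm25047 (chrX:36363899-36364002, plus strand). Snora47 (chr13:95330600-95330737, plus strand) and Gm22661 (chr13:95332618-95332749, plus strand) lie in introns of Zbed3. Snord49a (chr11:62603450-62603521, plus strand) lies in an intron of 2410006H16Rik, Gm24494 (chr3:153911610-153911690, minus strand) in one of Rabggtb, Snora31 (chr14:75847905-75848034, plus strand) in one of Tpt1 and Rnu1a1 (chr11:87422867-87423030, plus strand) in one of Tex14. Gm23823 (chr14:77540642-77540765, minus strand) lies on the opposite strand of an Enox1 intron. Gm22661 was 95.3% identical to Snora68 and Gm24494 81.0% identical to Snord45c, while Gm25047 was 78.5% identical to the U6 gene Rnu6 over 107 aligned bases.

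On the transcribed strand, a C box with a D box was found in 31 of the 189 snoRNAs (16.4%), against 20.2% of all 1507 annotated, and an ACA near the end in 95 (50.3%, against 43.0%). Neither was found in 63 by this search of exact letters near the ends. A CTGA in the last 15 bases, with or without a C box, was found in 62 snoRNAs (32.8%). Of the 154 snRNAs, 25 (16.2%) held ATTTNTGG or AATTTTTG, the Sm site letters searched, against 8.5% of those annotated. By identity of at least 80% over at least 80% of their length, 52 snRNAs matched U6, 13 U1, 7 U2, 3 U5 and 1 U12, and 78 matched no named snRNA. Of these 78, 51 still had a weaker match, 35 of them to U6.

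Counts were low. The deposited FPKM were whole multiples of the value of 1 read in 100% of cases (tolerance 0.05 of a read), so reads per member could be recovered. Members had a median of 1.0 read per library, 178 averaged under 1 read, and 14 averaged at least 10 (11 snoRNAs, 2 scaRNAs and 1 snRNA). The highest mean was 60.8 reads, for Snord104. Between 230 and 236 members had reads in an Unt library, between 130 and 163 in a DOX library, between 157 and 179 in a D_DXZ library and between 216 and 228 in a D_MgHCF library, and 28 had reads in all 12. Genes just outside the rule, with reads in 2 libraries, numbered 105 and had a median of 3 reads over the 12 libraries, against 5 reads for the 87 members with reads in exactly 3 libraries. For 13 members the reads lay in 1 group only (10 in D_MgHCF, 2 in DOX and 1 in Unt). These had to differ between groups once they passed the rule.

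The scaling of the libraries moved with the groups. Each library held 16626514 to 19365119 reads on genes. Dividing the library size used for the FPKM by this total gave ratios between 1.256 and 1.315 for Unt, 0.6155 and 0.7459 for DOX, 0.7108 and 0.8483 for D_DXZ, and 1.202 and 1.363 for D_MgHCF. The percent of these reads that fell on members lay between 0.00619 and 0.00717 for Unt, 0.00341 and 0.00375 for DOX, 0.00414 and 0.00469 for D_DXZ, and 0.00472 and 0.00621 for D_MgHCF. A given number of reads thus stands for a higher FPKM in DOX than in Unt. Counts of calls under other scalings are given for a part of the results, and the rest hold for the deposited scaling only. Fold changes below are differences of log2(FPKM + 1), fitted with limma over the 25044 genes that pass the same presence rule. They understate changes of low genes. A member was called at a Benjamini-Hochberg adjusted p under 0.05.

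DOX cells had lower values of more members than higher ones. Against Unt, 15 members rose and 50 fell, 18.1% of the 360, while 38.4% of all genes tested were called (18.6% higher and 19.9% lower). Among genes with a mean of under 10 reads, where all but 14 of the members lie, the background was 7.12%, and among those with at least 10 reads it was 62.1%. Of the 346 members under 10 reads, 8 rose and 47 fell, 15.9% called. Of the 14 members with at least 10 reads, 7 rose and 3 fell. By biotype, 11 snoRNAs rose and 31 fell, 2 scaRNAs rose and 3 fell, and 2 snRNAs rose and 16 fell. The median log2 fold change was -0.14 over snoRNAs, 0.04 over scaRNAs and -0.07 over snRNAs, against 0 over all genes. Scaling to reads on all genes gave 10 higher and 72 lower, and scaling to equal total FPKM (TPM) gave 8 and 85, with the median of all genes at -0.07 and -0.16. Without the members found in 1 group only, 13 rose and 49 fell.

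In D_DXZ vs Unt, 14 members rose and 37 fell, 14.2% against a background of 33.9% (15.9% higher and 18% lower, and 4.96% of genes under 10 reads). Of the 346 members under 10 reads, 12.1% were called. Among snoRNAs 11 rose and 26 fell, among scaRNAs 2 and 1, and among snRNAs 1 and 10. TPM scaling gave 8 higher and 78 lower, and scaling to all reads 8 and 56. For scaRNAs these counts were 2 and 5 under TPM and 2 and 3 under scaling to all reads. The number that rose was 8 without Unt replicate 1 and 9 without Unt replicate 3, and the number that fell was 24 without D_DXZ replicate 3. Against DOX itself, D_DXZ had no member called by limma, and the background was 0% as well. At an unadjusted p under 0.05, 28 of the 360 members passed (20 higher and 8 lower), against 9.54% of all genes, and voom on the recovered reads called 0.

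In D_MgHCF the counts depended on members with reads in that group only, whose direction the rule fixed. Against Unt, 22 members rose and 32 fell, 15% against 40.1% of all genes (24.3% higher and 15.7% lower) and 22.9% of genes under 10 reads. Of the snRNAs 14 rose and 8 fell, of the snoRNAs 8 rose and 23 fell, and of the scaRNAs 0 rose and 1 fell. Without the members found in 1 group only, 12 rose and 31 fell, among them 8 and 7 snRNAs and 4 and 23 snoRNAs, so that the excess of higher over lower snRNAs against Unt came down to 1. With all members, the snRNA counts against Unt were 20 higher and 11 lower under TPM, 20 and 9 under scaling to all reads and 9 and 8 under quantile normalization. Against DOX, 41 rose and 28 fell, 19.2% against a background of 51.5% (31.4% higher and 20.1% lower, and 24.8% of genes under 10 reads). Here 20 snRNAs rose and 2 fell, while 20 snoRNAs rose and 24 fell, and 1 scaRNA rose and 2 fell. Without the members found in 1 group only, 31 rose and 26 fell, among them 14 and 2 snRNAs and 16 and 22 snoRNAs. The split in this last comparison depended on the scaling, with 69 higher and 10 lower under TPM, 59 and 14 under scaling to all reads, 22 and 34 under quantile normalization and 17 and 31 by voom. By biotype, snRNAs called higher outnumbered those called lower under each scaling (34 and 1 under TPM, 29 and 1 under all reads, 14 and 3 under quantile normalization), whereas snoRNAs turned from 20 and 24 to 33 and 7 under TPM and 8 and 26 under quantile normalization. These scaled counts hold the 6 snRNAs with reads in D_MgHCF only, whose direction the rule fixed, and were not repeated without them. Genes with few reads, whatever their biotype, were called higher far more often than lower in D_MgHCF, 22.2% against 2.65% of genes under 10 reads in D_MgHCF vs DOX and 20.4% against 2.53% in D_MgHCF vs Unt. Without D_MgHCF replicate 3, 40 members rose against Unt, and without DOX replicate 3, 27 rose in D_MgHCF vs DOX. DOX and D_DXZ were each compared with the same Unt libraries, as was D_MgHCF, so these counts are not independent of each other.

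**Figure D1:**
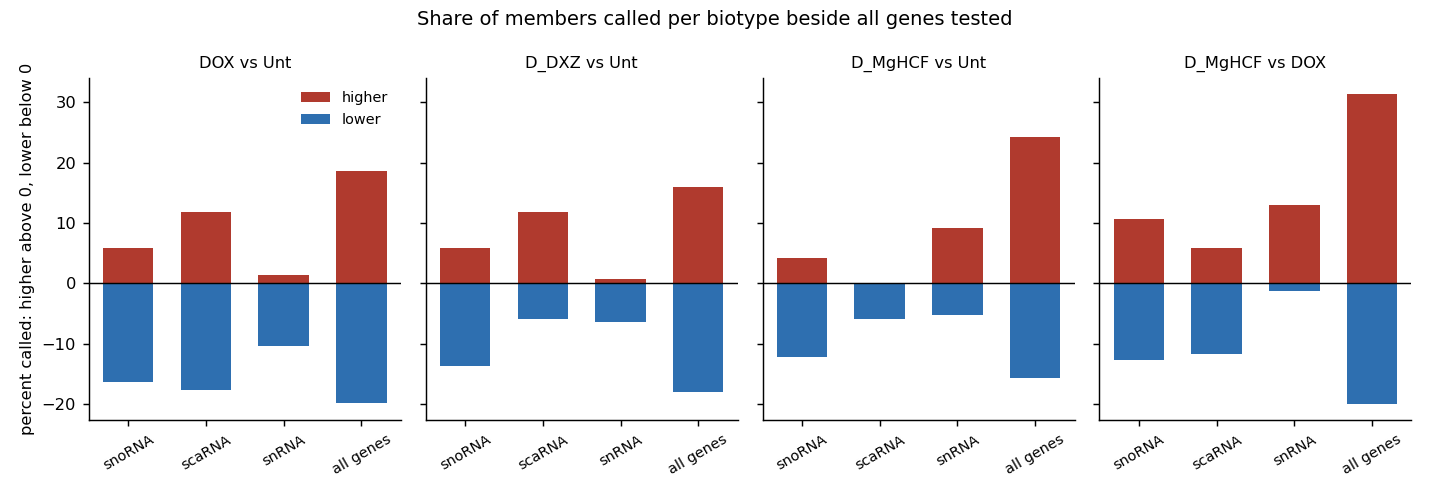
Percent of members called by limma at an adjusted p under 0.05 in 4 comparisons, higher above 0 and lower below 0, for 189 snoRNAs, 17 scaRNAs and 154 snRNAs beside all 25044 genes tested. Every snoRNA and snRNA bar is shorter than the bar of all genes in its direction, and the only snRNA bars in which higher outweighs lower are those of the D_MgHCF comparisons, in which 6 snRNAs had reads in D_MgHCF only. Most members had few reads, and 346 averaged under 10. Of these, 15.9% were called in DOX vs Unt and 12.1% in D_DXZ vs Unt, against 7.12% and 4.96% of all such genes. In D_MgHCF vs Unt and vs DOX the shares were 14.5% and 17.1%, against 22.9% and 24.8%.

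Summed over members, the biotypes moved apart. Summed snoRNA levels were 371.9 ± 21.9 FPKM (SD, n = 3) in Unt, 354.5 ± 53.8 in DOX, 367.2 ± 9.71 in D_DXZ and 233.9 ± 30.5 in D_MgHCF, where the highest D_MgHCF library (255 FPKM) lay below every other library. Summed scaRNA levels were 12.3 ± 1.34 FPKM in Unt, 33.0 ± 5.68 in DOX, 32.7 ± 5.27 in D_DXZ and 8.32 ± 2.76 in D_MgHCF. The higher scaRNA sums of DOX and D_DXZ came from Scarna2 and Gm23119. Without these, the scaRNA reads of every DOX and D_DXZ library were fewer than those of every Unt library. In FPKM, the sums of the remaining scaRNAs in DOX and D_DXZ overlapped with those of Unt. The lower reads were thus not seen on the deposited scaling. Summed snRNA levels were 86.4 ± 6.73 FPKM in Unt, 59.1 ± 2.54 in DOX, 82.3 ± 12.0 in D_DXZ and 134.7 ± 37.5 in D_MgHCF. D_MgHCF replicate 3 (97.3 FPKM) lay near the highest Unt library (93.7 FPKM). The D_MgHCF sum holds the 6 snRNAs that had reads in that group only, and no sum without them is given. Without Gm25047, the top snRNA, the means were 85.8 FPKM in Unt, 58.4 in DOX, 81.4 in D_DXZ and 117.7 in D_MgHCF. No p is given for these sums, since the members were chosen with results known. In plain reads the snoRNA sum was 871 to 962 per Unt library and 465 to 520 per DOX library, so the near-equal FPKM of these groups rests on the deposited scaling. The D_MgHCF libraries had 576, 657 and 528 snoRNA reads, each above every DOX library, and rescaled by TPM the mean snoRNA sum was 561 in Unt, 206 in DOX, 243 in D_DXZ and 318 in D_MgHCF, so the direction of D_MgHCF against DOX turned with the scaling. For scaRNAs the sum rescaled by TPM was 22.8 in Unt, 23.5 in DOX, 26.4 in D_DXZ and 13.6 in D_MgHCF, so DOX and Unt were near-equal on that scale. The snRNA sum lay between 223 and 253 reads per Unt library, 85 and 99 per DOX library, 115 and 150 per D_DXZ library, and 258 and 412 per D_MgHCF library. Fewer cells of a type and less RNA per cell cannot be told apart in bulk samples.

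**Figure D2:**
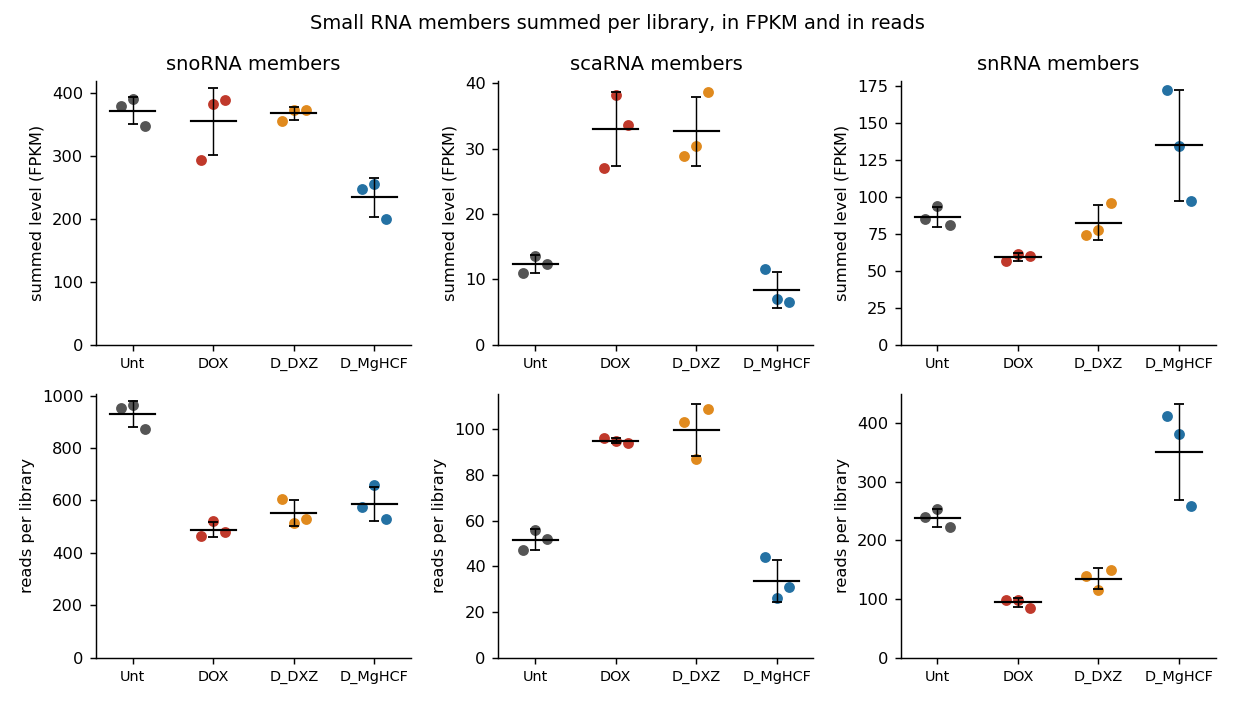
Summed level of the snoRNA, scaRNA and snRNA members in each of the 12 libraries, in FPKM (top) and in reads (bottom), with points for libraries, lines for group means and bars for 1 SD. The scaRNA reads of all 3 DOX libraries (94 to 96) and all 3 D_DXZ libraries (87 to 109) lie above those of Unt (47 to 56) and D_MgHCF (26 to 44). This excess over Unt comes from Scarna2 and Gm23119.

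Among the scaRNAs, Scarna2 and Gm23119 were high in DOX and D_DXZ and near 0 in Unt and D_MgHCF. Scarna2 is an RNA with guide function for U2 modification. It stood at 0.384, 0 and 0 FPKM in Unt, 8.12, 7.34 and 12.3 in DOX, 7.48, 8.29 and 9.04 in D_DXZ, and 0, 0 and 0.0984 in D_MgHCF. These levels rested on 4, 0 and 0 reads in Unt, 51, 39 and 59 in DOX, 50, 45 and 50 in D_DXZ, and 0, 0 and 1 in D_MgHCF. Every DOX and D_DXZ library lay far above every Unt and D_MgHCF library. The log2 fold change of Scarna2 by limma was 3.17 ± 0.20 (SE) in DOX vs Unt (adjusted p = 1.06e-05), 3.05 ± 0.20 in D_DXZ vs Unt (adjusted p = 5.59e-05) and -3.28 ± 0.20 in D_MgHCF vs DOX (adjusted p = 2.81e-06). D_MgHCF did not pass against Unt (adjusted p = 0.691). The nearest gene, Tmem167b, is 1674 bases away.

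Gm23119, an unnamed scaRNA between genes in which the search near the ends found neither pair of boxes, had the same order of levels. It stood at 0.284, 0 and 0.292 FPKM in Unt, 8.94, 15.6 and 14.2 in DOX, 10.2, 9.27 and 12.8 in D_DXZ, and 1.70, 0.281 and 0.873 in D_MgHCF. It had 1, 0 and 1 reads in Unt, 19, 28 and 23 in DOX, 23, 17 and 24 in D_DXZ, and 5, 1 and 3 in D_MgHCF. The DOX and D_DXZ libraries again did not overlap with those of Unt or D_MgHCF. By limma the log2 fold change was 3.52 ± 0.28 in DOX vs Unt (adjusted p = 1.23e-05), 3.30 ± 0.28 in D_DXZ vs Unt (adjusted p = 5.59e-05) and -2.87 ± 0.28 in D_MgHCF vs DOX (adjusted p = 2.17e-05). The level in D_MgHCF against Unt did not pass (0.65 ± 0.28, adjusted p = 0.0866). Both scaRNAs kept these calls under every alternative run.

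The other 15 scaRNAs had few reads. Gm22728, in an intron of G3bp2, had 3, 2 and 5 reads in Unt, 0, 0 and 0 in DOX, 0, 0 and 0 in D_DXZ, and 0, 0 and 1 in D_MgHCF, and fell by limma in DOX (-1.01 ± 0.15, adjusted p = 0.000304), in D_DXZ (-1.01 ± 0.15, adjusted p = 0.00048) and in D_MgHCF (-0.88 ± 0.15, adjusted p = 0.00133) against Unt. Its host, a stress granule protein gene, did not pass in DOX vs Unt (log2 fold change 0.64 ± 0.30, adjusted p = 0.127). Gm26347 in Rnf41 fell in DOX (-1.0 ± 0.27, limma adjusted p = 0.0117), with 2, 6 and 5 reads in Unt and 1, 0 and 0 in DOX, and did not pass without Unt replicate 2 (-0.83, adjusted p = 0.0503) or by voom (adjusted p = 0.0602). Gm24644 in Fbxo3 also fell (-0.83 ± 0.28, limma adjusted p = 0.0356), with 2, 3 and 3 reads in Unt and 0, 0 and 0 in DOX, a call that was lost when any 1 Unt or DOX library or D_MgHCF replicate 2 was left out (-0.92 to -0.78), with all genes of the table tested and by voom. Gm22009 in Kpna4 was higher in D_MgHCF than in DOX (0.60 ± 0.23, limma adjusted p = 0.0476), with 3, 1 and 1 reads in DOX and 12, 4 and 10 in D_MgHCF, a call that was kept only when the library left out was Unt replicate 2, DOX replicate 1 or D_MgHCF replicate 2 (lowest value 0.41, without D_MgHCF replicate 1), and lost by voom and under quantile normalization (0.28). The remaining 11, among them Scarna6, Scarna8, Scarna13 and Scarna17, passed in none of the comparisons, and their reads over 3 libraries of a group ranged from 1 to 25.

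**Figure D3:**
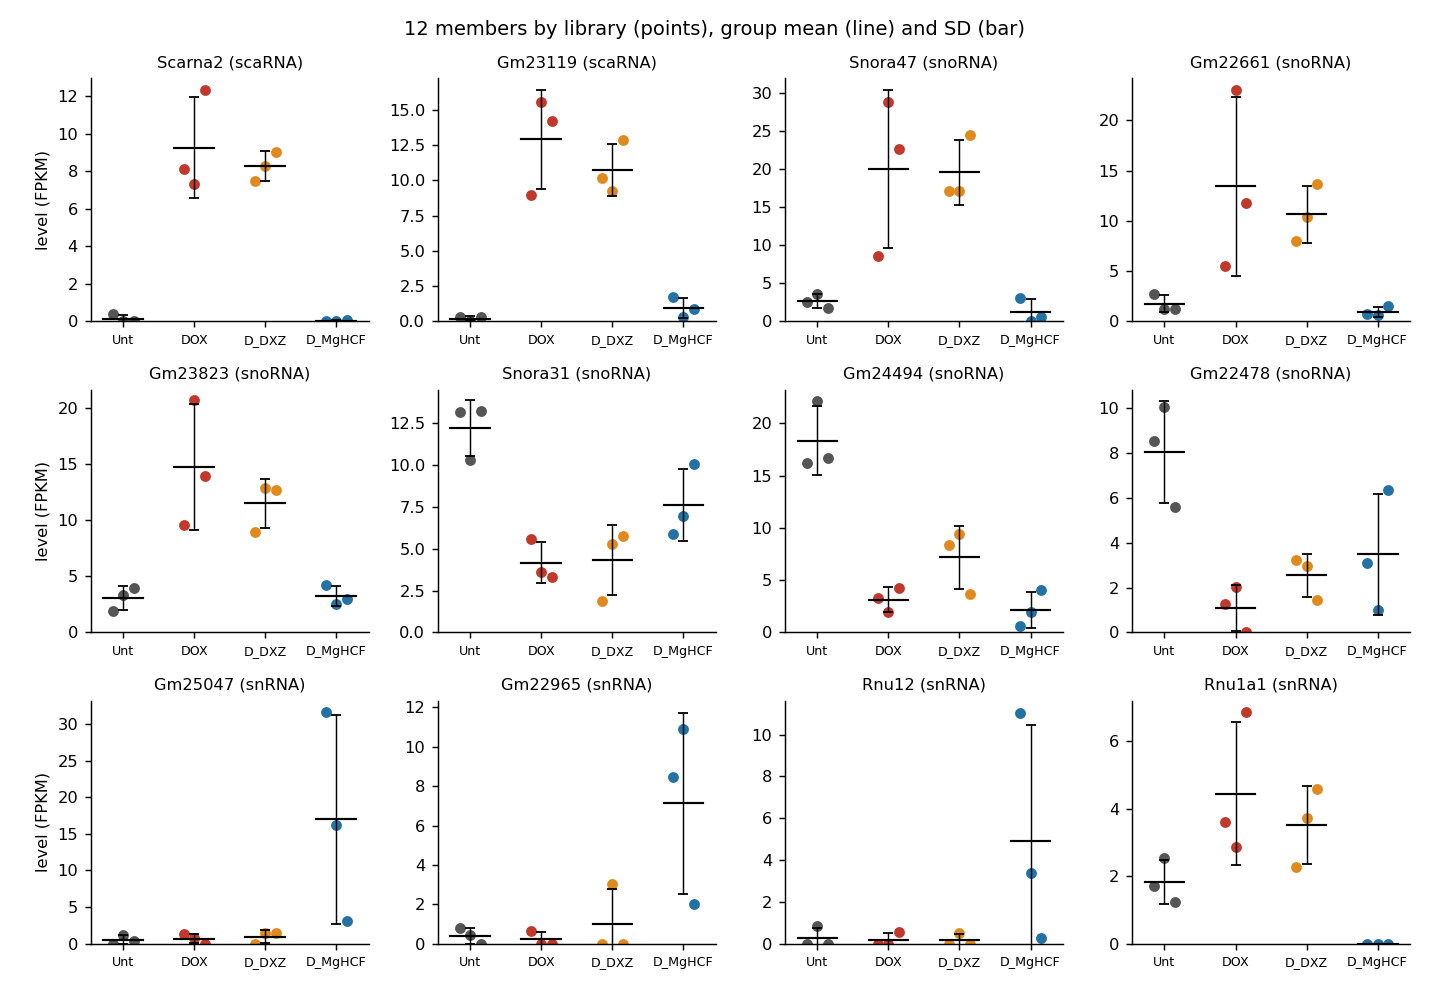
Levels of 12 members in FPKM on the vertical axes, by group and library (points), with the group mean (line) and 1 SD (bar), each panel on its own scale from 0. Scarna2, Gm23119, Snora47, Gm22661 and Gm23823 are high in DOX and D_DXZ, Snora31, Gm24494 and Gm22478 are highest in Unt, Gm25047, Gm22965 and Rnu12 are high in D_MgHCF with a wide spread, and Rnu1a1 is at 0 in all 3 D_MgHCF libraries.

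Of the snoRNAs that rose in DOX, a pair sits in 1 gene. Snora47 and Gm22661 are H/ACA snoRNAs in introns of Zbed3, which encodes an axin-binding zinc finger protein. Snora47 stood at 2.59, 3.63 and 1.78 FPKM in Unt, 8.59, 28.8 and 22.6 in DOX, 17.1, 17.1 and 24.4 in D_DXZ, and 3.10, 0 and 0.591 in D_MgHCF. All DOX and D_DXZ libraries lay above all Unt and D_MgHCF libraries, although 1 DOX library was well below the other two. The limma log2 fold change was 2.40 ± 0.52 in DOX vs Unt (adjusted p = 0.00367), 2.50 ± 0.52 in D_DXZ vs Unt (adjusted p = 0.00358) and -3.34 ± 0.52 in D_MgHCF vs DOX (adjusted p = 0.000394). Under TPM scaling the DOX vs Unt value was 1.25 and did not pass (adjusted p = 0.086).

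Gm22661 stood at 2.71, 1.26 and 1.24 FPKM in Unt, 5.49, 23.0 and 11.8 in DOX, 7.98, 10.4 and 13.6 in D_DXZ, and 0.721, 0.595 and 1.54 in D_MgHCF. It showed the same separation of groups, with the lowest value of DOX again in replicate 1. By limma it rose by 2.24 ± 0.42 in DOX vs Unt (adjusted p = 0.0015) and 2.10 ± 0.42 in D_DXZ vs Unt (adjusted p = 0.00288), and its D_MgHCF vs DOX value was -2.72 ± 0.42 (adjusted p = 0.000382). Zbed3 itself moved the other way, with means of 13.2 FPKM in Unt, 3.02 FPKM in DOX, 5.18 FPKM in D_DXZ and 7.39 FPKM in D_MgHCF (limma log2 fold change in DOX vs Unt -1.83 ± 0.14, adjusted p = 1.2e-05).

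Gm23823, an H/ACA snoRNA on the strand opposite to Enox1, stood at 1.92, 3.37 and 3.96 FPKM in Unt, 9.56, 20.7 and 13.9 in DOX, 8.99, 12.9 and 12.7 in D_DXZ, and 4.22, 2.53 and 2.96 in D_MgHCF. No DOX or D_DXZ library overlapped with Unt or D_MgHCF. By limma it rose in DOX vs Unt (1.92 ± 0.29, adjusted p = 0.000316) and in D_DXZ vs Unt (1.64 ± 0.29, adjusted p = 0.00124) and was lower in D_MgHCF than in DOX (-1.85 ± 0.29, adjusted p = 0.00036). The counting is not stated to use strand, so reads of Enox1 itself could be counted to it.

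Snord104, a C/D snoRNA and the most abundant member, stood at 55.6, 35.2 and 37.4 FPKM in Unt, 59.3, 85.7 and 80.3 in DOX, 49.6, 61.0 and 68.5 in D_DXZ, and 27.2, 32.5 and 16.9 in D_MgHCF. These levels rested on 98, 59 and 64 reads in Unt, 63, 77 and 65 in DOX, 56, 56 and 64 in D_DXZ, and 40, 58 and 29 in D_MgHCF. Every DOX library lay above every Unt library in FPKM, and D_MgHCF lay below both. By limma the log2 fold change was 0.81 ± 0.26 in DOX vs Unt (adjusted p = 0.0281), -0.74 ± 0.26 in D_MgHCF vs Unt (adjusted p = 0.0422) and -1.55 ± 0.26 in D_MgHCF vs DOX (adjusted p = 0.000563). The DOX vs Unt direction depended on the scaling, since the value was 0.81 by voom with median-ratio scaling of the reads but -0.53 under TPM, -0.12 under scaling to all reads and -0.31 under quantile normalization. That call was also lost without Unt replicate 2 (0.69), Unt replicate 3 (0.73), DOX replicate 2 (0.71) or DOX replicate 3 (0.76). The call in D_MgHCF vs Unt was kept only when the library left out was DOX replicate 1, D_DXZ replicate 1 or D_MgHCF replicate 2, with -0.54 without Unt replicate 1 and -0.48 without D_MgHCF replicate 3, and the value in D_MgHCF vs DOX did not pass under TPM (-0.36) or quantile normalization (-0.66).

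Snord118 encodes U8, which acts in maturation of the large subunit rRNA. It had 0, 0 and 0 reads in Unt, 3, 4 and 1 in DOX, 2, 2 and 1 in D_DXZ, and 0, 0 and 0 in D_MgHCF. Reads were present in every DOX and D_DXZ library and absent from Unt and D_MgHCF. By limma it rose in DOX (1.25 ± 0.21, adjusted p = 0.00072) and in D_DXZ (0.89 ± 0.21, adjusted p = 0.0072) against Unt, and its mean in DOX was at least 1.62-fold higher than the floor of 3 reads per Unt library. Snord13, another snoRNA with a role in rRNA processing, had 0, 0 and 0 reads in Unt, 0, 2 and 0 in DOX, 0, 1 and 0 in D_DXZ, and 3, 2 and 1 in D_MgHCF and was not called. Snord17 in Snx5 and Snord91a in Tsr1 were higher in D_DXZ than in Unt (0.65 ± 0.22 and 0.81 ± 0.24, limma adjusted p = 0.0459 and 0.0215), but under TPM scaling these values were -0.22 and -0.23. The call of Snord17 was lost when Unt replicate 1 or 3, DOX replicate 3, D_DXZ replicate 2 or 3 or D_MgHCF replicate 1 or 2 was left out (lowest 0.48, without D_DXZ replicate 3), and that of Snord91a when Unt replicate 1 or 2 or any D_DXZ library was (lowest 0.56, without Unt replicate 1). Against DOX, D_MgHCF was lower for Snord17 (-0.83 ± 0.22, adjusted p = 0.00991) and higher for Snord91a (0.96 ± 0.24, adjusted p = 0.00649), and the first of these did not pass under TPM (-0.08) nor the second by voom (adjusted p = 0.0967).

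The snoRNAs that fell in DOX included several in hosts that rose. Snora31, an H/ACA snoRNA in an intron of Tpt1, which encodes the translationally controlled tumour protein, stood at 13.1, 10.3 and 13.2 FPKM in Unt, 5.57, 3.60 and 3.32 in DOX, 1.91, 5.28 and 5.76 in D_DXZ, and 5.86, 6.95 and 10.0 in D_MgHCF. All 3 Unt libraries lay above every other library. By limma it fell in DOX (-1.37 ± 0.32, adjusted p = 0.00505) and in D_DXZ (-1.40 ± 0.32, adjusted p = 0.00545) against Unt, and D_MgHCF did not pass against either group (adjusted p = 0.132 against Unt and 0.075 against DOX). Tpt1 rose, with means of 385 FPKM in Unt and 1426 FPKM in DOX (1.88 ± 0.25, adjusted p = 0.000172). Rnu73b, a C/D snoRNA in Rps3a1, stood at 7.28, 9.99 and 7.49 FPKM in Unt and 0, 5.49 and 0 in DOX and fell by limma (-2.30 ± 0.64, adjusted p = 0.0147), while Rps3a1 rose, with means of 649 FPKM in Unt and 1942 FPKM in DOX (1.57 ± 0.25, adjusted p = 0.000544). The call of Rnu73b was lost without Unt replicate 2 (-2.17) and without DOX replicate 1 or 3 (-1.85 each). Under quantile normalization Tpt1 and Rps3a1 stood at -0.13 and -0.32, so that the rise of these hosts depends on the scaling.

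Gm24494, the Snord45c-like RNA in Rabggtb, which encodes a subunit of Rab geranylgeranyl transferase, stood at 16.2, 22.2 and 16.7 FPKM in Unt, 3.25, 1.92 and 4.27 in DOX, 8.41, 9.42 and 3.70 in D_DXZ, and 0.588, 1.94 and 4.02 in D_MgHCF. Each Unt library lay above every treated library. It fell by limma in DOX (-2.25 ± 0.42, adjusted p = 0.00147), D_DXZ (-1.31 ± 0.42, adjusted p = 0.0348) and D_MgHCF (-2.74 ± 0.42, adjusted p = 0.000771) against Unt. The D_DXZ call was lost when any 1 Unt library was left out (-1.39 to -1.17), without D_DXZ replicate 3 (-0.95) and without D_MgHCF replicate 2 (-1.31). The log2 fold change of Rabggtb was -0.50 ± 0.16, adjusted p = 0.0328 in DOX and -2.30 ± 0.16, adjusted p = 1.7e-05 in D_MgHCF against Unt. Gm22478, on the opposite strand of an intron of Snrnp70, the gene of a U1 particle protein, stood at 8.52, 10.0 and 5.58 FPKM in Unt, 1.28, 2.02 and 0 in DOX, 3.22, 2.97 and 1.46 in D_DXZ, and 3.09, 1.02 and 6.35 in D_MgHCF. It fell by limma in DOX vs Unt (-2.21 ± 0.51, adjusted p = 0.00488).

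Snord49a, Snord49b and Snord65 are C/D snoRNAs in introns of the noncoding gene 2410006H16Rik and were chosen after their values were seen. Snord49a, which had the lowest log2 fold change of the 360 in DOX vs Unt, stood at 19.3, 9.85 and 10.8 FPKM in Unt, 0, 1.08 and 0 in DOX, and 2.64, 3.27 and 1.70 in D_MgHCF (limma -3.43 ± 0.54, adjusted p = 0.000483 for DOX and -1.98 ± 0.54, adjusted p = 0.0161 for D_MgHCF). Snord49b stood at 5.52, 6.38 and 5.68 FPKM in Unt and 2.74, 0 and 0 in DOX (limma -2.14 ± 0.64, adjusted p = 0.0213). Snord65 stood at 2.76, 4.64 and 6.25 FPKM in Unt and 0.915, 0 and 0 in DOX (limma -2.11 ± 0.43, adjusted p = 0.00248). In each of the 3 the DOX libraries lay below the Unt libraries. Their host, 2410006H16Rik, did not pass under the deposited scaling, with means of 261 FPKM in Unt and 234 FPKM in DOX (limma -0.16 ± 0.30, adjusted p = 0.797), but passed as lower under TPM (-1.52), scaling to all reads (-1.1) and quantile normalization (-1.91). Also chosen after seeing values, Snord53 in Wdr43, a gene of small subunit assembly, fell by limma (-2.06 ± 0.39, adjusted p = 0.00142) with its host (-1.99 ± 0.18, adjusted p = 1.86e-05), and Snord83b in Rpl3 fell (-2.32 ± 0.55, adjusted p = 0.00642) while its host rose (1.12 ± 0.23, adjusted p = 0.00246), which turned to -0.24 under TPM and -0.71 under quantile normalization for Rpl3.

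Snora57, an H/ACA snoRNA on the strand opposite to Lbhd1, stood at 19.9, 18.9 and 22.1 FPKM in Unt, 12.5, 12.6 and 15.8 in DOX, 14.2, 20.6 and 8.10 in D_DXZ, and 13.8, 9.29 and 4.68 in D_MgHCF. The DOX and D_MgHCF libraries lay below all Unt libraries, while D_DXZ overlapped with Unt. DOX and D_DXZ did not pass against Unt (-0.55 ± 0.35 and -0.56 ± 0.35, limma adjusted p = 0.293 and 0.293). For D_MgHCF limma gave -1.16 ± 0.35 (adjusted p = 0.0258), a call that was lost when any 1 Unt library was left out (-1.2 to -1.10) and without D_MgHCF replicate 2 (-1.21) or 3 (-0.78). Snora2b, which overlaps an exon of Kansl2 so that its reads cannot be told from those of that gene, stood at 7.69, 12.5 and 20.8 FPKM in DOX and 3.82, 6.31 and 4.46 in D_MgHCF (limma -1.25 ± 0.29, adjusted p = 0.00505), and did not pass under TPM (-0.17). Of the 31 snoRNAs with both a C and a D box, 2 rose and 9 fell in DOX vs Unt and 0 rose and 9 fell in D_MgHCF vs Unt, with median log2 fold changes of -0.39 and -0.68. Of the 95 with an ACA near the end, 6 rose and 13 fell in DOX and 4 rose and 8 fell in D_MgHCF against Unt. Of the 31, 35.5% were called in DOX vs Unt and 29.0% in D_MgHCF vs Unt. Of the 95, 19 and 12 were called in the same order. The background was 38.4% and 40.1% of all genes, and 7.12% and 22.9% of genes under 10 reads. Counts by box are given for the deposited scaling only. Under TPM the counts over all 189 snoRNAs moved from 11 higher and 31 lower to 6 and 58 in DOX vs Unt. In D_MgHCF vs Unt they moved from 8 and 23 to 12 and 34. Whether the box groups differ was not tested.

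The snRNAs that rose in D_MgHCF included copies with partial likeness to U6, and the spread between D_MgHCF libraries was wide. Gm25047 stood at 0, 1.204 and 0.394 FPKM in Unt, 1.27, 0.749 and 0 in DOX, 0, 1.47 and 1.44 in D_DXZ, and 31.6, 16.2 and 3.13 in D_MgHCF. Its D_MgHCF reads were 69, 43 and 8, against 0 to 3 in every other library. Each D_MgHCF library lay above all others, and replicate 3 was the lowest of the group. By limma the log2 fold change was 3.19 ± 0.69 against Unt (adjusted p = 0.00517) and 3.06 ± 0.69 against DOX (adjusted p = 0.00404), and without D_MgHCF replicate 3 these were 4.03 and 3.90. Gm22965 (79.0% identical to Rnu6 over 100 bases) and Gm25014 (78.3% identical to Rnu6-ps2 over 106 bases) were chosen after their values were seen. Gm22965 stood at 0.787, 0.413 and 0 FPKM in Unt, 0.652, 0 and 0 in DOX, 0, 3.02 and 0 in D_DXZ, and 8.48, 10.9 and 2.02 in D_MgHCF (limma 2.36 ± 0.62, adjusted p = 0.013 against Unt). Gm25014 stood at 0, 0.405 and 0.397 FPKM in Unt, 0, 0.757 and 0.839 in DOX, 0, 2.22 and 0.727 in D_DXZ, and 8.32, 5.72 and 1.98 in D_MgHCF (limma 2.19 ± 0.49, adjusted p = 0.00599 against Unt). In both, replicate 3 was again the lowest D_MgHCF library.

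Rnu12, the U12 snRNA of the minor spliceosome that removes a small class of introns, stood at 0, 0.829 and 0 FPKM in Unt, 0, 0 and 0.573 in DOX, 0, 0.505 and 0 in D_DXZ, and 11.03, 3.38 and 0.270 in D_MgHCF. D_MgHCF replicates 1 and 2 lay above every other library and replicate 3 did not. It was called in D_MgHCF vs DOX by limma (1.80 ± 0.65, adjusted p = 0.0389). The call was kept only when the library left out was Unt replicate 2, D_DXZ replicate 2 or D_MgHCF replicate 3, and without D_MgHCF replicate 1 the value was 1.02 (adjusted p = 0.123), against 2.64 without replicate 3. It was also lost with all genes of the table tested, under quantile normalization, by voom and in a fit of these 2 groups alone. Rnu12 lies 260 bases from Poldip3, which is on the other strand.

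Rnu1a1 was lower in D_MgHCF. It is a U1 gene, the snRNA that pairs with the 5′ splice site, and has 25 near-identical copies in the genome, so that the assignment of its reads is uncertain. It stood at 1.70, 2.54 and 1.25 FPKM in Unt, 3.62, 2.85 and 6.85 in DOX, 2.27, 3.72 and 4.57 in D_DXZ, and 0, 0 and 0 in D_MgHCF. No D_MgHCF library had a read, and every other library did. By limma its log2 fold change was -1.48 ± 0.29 in D_MgHCF vs Unt (adjusted p = 0.00287) and -2.38 ± 0.29 in D_MgHCF vs DOX (adjusted p = 7.65e-05). Against the floor of 3 reads per D_MgHCF library its mean was at least 2.35-fold higher in Unt and at least 5.71-fold higher in DOX. The rise in DOX vs Unt (0.90 ± 0.29, limma adjusted p = 0.0297) turned to -0.09 under TPM scaling and was lost without Unt replicate 1 (0.88), Unt replicate 3 (0.75) or DOX replicate 3 (0.60).

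Of the U6-like copies, Gm22392 (97.2% identical to Rnu6, with 141 near-identical copies, overlapping an exon of Eny2) stood at 5.94, 8.19 and 6.12 FPKM in Unt, 3.08, 0 and 0.808 in DOX, 1.74, 2.85 and 0.700 in D_DXZ, and 4.00, 2.57 and 2.28 in D_MgHCF. The Unt libraries lay above all DOX libraries. By limma it fell in DOX (-1.98 ± 0.46, adjusted p = 0.00534) and in D_DXZ (-1.55 ± 0.46, adjusted p = 0.0231) against Unt. The latter call was lost without Unt replicate 2 (-1.43) or 3 (-1.61) or D_DXZ replicate 1 (-1.59) or 3 (-1.24). Gm22753, 91.6% identical to Rnu6, and Rnu2-10, a U2 gene, were called in no comparison. By place, of the 36 between genes, 12 rose and 0 fell in D_MgHCF vs DOX and 10 rose and 2 fell in D_MgHCF vs Unt. Without those that had reads in 1 group only, 8 and 0 of 32 (25.0% called) remained against DOX and 6 and 2 against Unt. Among all genes under 10 reads, the shares called higher and lower were 22.2% and 2.65% against DOX, and 20.4% and 2.53% against Unt. Of the 53 on the opposite strand of an intron, 5 rose and 0 fell in D_MgHCF vs DOX (3 and 0 of 51 without such members), and of the 63 in an intron on the same strand, 3 rose and 2 fell (3 and 2 of 62).

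In all, 214 members lay in 182 host genes on the same strand, and 137 of these were snoRNAs in 109 hosts. In DOX vs Unt, of the 25 snoRNAs that fell inside a host, 11 had a host that rose, 6 a host that fell and 8 a host that was not called. Of the 8 that rose, 1 had a host that rose and 5 a host that fell. Over the 3 biotypes, 19 members were called against and 11 with their host, and the latter was 7 without Unt replicate 1, 6 without Unt replicate 2 and 18 without D_MgHCF replicate 3. In D_MgHCF vs Unt, 13 of the 17 snoRNAs that fell had a host that fell and 0 had one that rose, and 18 members of any biotype were called with and 2 against their host. The 18 came down to 11, 10 and 7 without Unt replicate 1, 2 or 3, to 11 without D_MgHCF replicate 2 and to 8 in a fit of these 2 groups alone. The median log2 fold change of the snoRNA hosts was 0.08 in DOX vs Unt and -0.48 in D_MgHCF vs Unt. Most snoRNAs thus had a host with a negative value in D_MgHCF vs Unt, although only 17 fell themselves. Over the 137, member and host values correlated at r = -0.22 in DOX vs Unt and 0.31 in D_MgHCF vs Unt. Members in the same host were counted separately, and whether the agreement exceeds this shift of the hosts was not tested. The DOX balance depended on scaling, with 42 called with and 12 against the host under TPM, 30 and 18 under scaling to all reads, and 17 and 10 under quantile normalization. Whether the 2 comparisons differ was not tested.

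For the mRNAs of the proteins that make and carry these RNAs, the counts stand beside a background of 62.1% called in DOX vs Unt, 53% in D_MgHCF vs Unt and 71.6% in D_MgHCF vs DOX among genes with a mean of at least 10 reads, with median log2 fold changes of 0.00, 0.02 and 0.13. In a list of 21 snoRNP proteins and assembly factors, 7 rose and 10 fell in DOX vs Unt (81.0% called, median -0.23), and 1 rose and 14 fell under TPM scaling. Fbl, the methyltransferase of C/D particles, rose, with means of 23.3 ± 2.09 FPKM in Unt and 53.1 ± 6.51 FPKM in DOX (limma 1.15 ± 0.11, adjusted p = 2.88e-05). Dkc1, the pseudouridine synthase of H/ACA particles, rose, with means of 26.6 ± 1.47 FPKM in Unt and 68.5 ± 9.36 FPKM in DOX (1.32 ± 0.36, limma adjusted p = 0.0134). Its partner Nop10 rose, with means of 28.2 ± 0.775 FPKM in Unt and 141 ± 20.8 FPKM in DOX (2.27 ± 0.22, limma adjusted p = 2.44e-05). Nop56, a core C/D protein, fell, with means of 97.6 ± 8.1 FPKM in Unt and 42.1 ± 6.59 FPKM in DOX (-1.20 ± 0.23, limma adjusted p = 0.00141), and so did the assembly factors Nufip1 (-2.01 ± 0.22) and Znhit6 (-1.63 ± 0.20) and the scaRNA-binding protein Wrap53 (-1.09 ± 0.16). Under TPM scaling Fbl and Dkc1 did not rise in DOX, with log2 fold changes of -0.18 and -0.01, while the other 5 kept their direction under each scaling tried. In D_MgHCF vs DOX, 4 of the 21 rose and 12 fell (76.2%, median -0.69), and under TPM 11 rose and 5 fell.

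Of 35 tested proteins of the spliceosomal snRNPs, 21 rose and 8 fell in DOX vs Unt (82.9% called, median 0.85, and 7 and 19 under TPM scaling), and 6 rose and 25 fell in D_MgHCF vs DOX (88.6%, median -1.30, and 11 and 13 under TPM). The Sm protein Snrpe rose, with means of 35.8 ± 6.81 FPKM in Unt and 146 ± 22.2 FPKM in DOX (2.00 ± 0.18, limma adjusted p = 1.74e-05), and the U6-binding Lsm8 fell (-1.92 ± 0.23, limma adjusted p = 7.55e-05). Of 37 factors of snRNA transcription and snRNP assembly, 6 rose and 18 fell in DOX (64.9%, median -0.38, and 0 and 32 under TPM), among them Phax, the export adaptor of snRNA (-2.34 ± 0.28, limma adjusted p = 8.52e-05), and the SMN complex subunit Gemin6 (-2.08 ± 0.30, limma adjusted p = 0.00024). Of 23 tested factors of intron debranching, trimming and the nuclear exosome, 3 rose and 12 fell in DOX (65.2%, median -0.69, and 0 and 21 under TPM) and 0 rose and 18 fell in D_MgHCF against Unt (78.3%, median -0.99). Dbr1, the lariat debranching enzyme that frees intronic snoRNAs, fell, with means of 14.0 ± 0.384 FPKM in Unt and 1.97 ± 1.02 FPKM in DOX (-2.39 ± 0.23, limma adjusted p = 2.53e-05), and the 5′ exonuclease Xrn2 rose (1.02 ± 0.14, limma adjusted p = 0.000176), though it stood at -0.32 under TPM. Of 19 tested noncoding snoRNA host genes, 4 rose and 8 fell in DOX (63.2%, median 0.01, and 0 and 11 under TPM), with Snhg5 the lowest (-3.18 ± 0.34, limma adjusted p = 4.4e-05) and Snhg10 the highest (1.53 ± 0.21, limma adjusted p = 0.000172). D_DXZ vs DOX had 0 calls in each of these lists, as over all genes.

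Summed levels of cell type markers differed between the groups too. Summed over 11 myoblast and muscle genes, levels lay between 12.4 and 13.5 FPKM in Unt, 4.4 and 7.59 in DOX, 5.59 and 6.79 in D_DXZ, and 19.86 and 28.18 in D_MgHCF, most of it from the cardiac factor Gata4, while Myod1, Myf5 and Myog were near 0. Of the 9 tested, 1 rose and 3 fell in DOX vs Unt, 2 and 3 in D_DXZ vs Unt, and 3 and 0 in D_MgHCF vs Unt. Their median log2 fold changes were 0.005, 0.031 and 0.052. Under TPM the counts were 1 and 3, 0 and 3, and 3 and 2 in the same order. Quantile normalization gave 1 and 2, 2 and 2, and 1 and 2. The sum of 5 fibroblast markers lay between 48.45 and 53.21 FPKM in Unt, 103.07 and 130.53 in DOX, 81.3 and 110.61 in D_DXZ, and 23.18 and 43.3 in D_MgHCF. Of these 5, 2 rose and 1 fell in DOX vs Unt, and 1 rose and 2 fell under TPM scaling. In D_MgHCF vs Unt, 0 rose and 1 fell. The sum of 4 endothelial and leukocyte markers lay between 0.93 and 1.17 FPKM in Unt, 2.8 and 3.72 in DOX, 3.79 and 4.33 in D_DXZ, and 2.21 and 5.77 in D_MgHCF, and the macrophage marker Cd68 was called higher than Unt in all 3 by limma (1.00 ± 0.21, 1.33 ± 0.21 and 1.02 ± 0.21). Under TPM and under scaling to all reads, 0 of the 4 were called in DOX vs Unt, so the Cd68 call in DOX was lost there. The part of these shifts in the levels of the small RNAs was not tested.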

How the data were processed

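Poly-T bead purified RNA of the 12 libraries was sequenced as paired 150-base reads, and per the labels the submitters' processing notes name HISAT2 2.0.5 and the mouse genome GRCm38. The counting program, strand setting and annotation release were not given in the sources used here, and how well reads of a rat line were placed on mouse genes was not tested. The authors deposited FPKM (fragments scaled to gene length and library size) for 54345 mouse genes, 1 column per library, and all 12 columns were used. Whole reads were recovered as FPKM × length over the value of 1 read in each library. Depth was 16626514 to 19365119 reads on genes.

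Genes with a nonzero FPKM in 3 or more libraries (25044) were fitted once over the 4 groups with limma 3.58.1 (R 4.3.3, trend) on log2(FPKM + 1), and p-values were adjusted over all of them by Benjamini-Hochberg. The fit was tested on simulated data. Scripts ran in Python 3.11.15, sequences came from GENCODE M21, and likeness was scored with BLAST 2.17.0. Members and lists were chosen with earlier results of these data known. Named were the 5 snoRNAs and 3 scaRNAs and snRNAs with the highest mean FPKM, the members with the largest called change in each comparison and direction without overlap of libraries and with a mean of at least 10 reads, every Rnu gene and scaRNA, a short list of processing snoRNAs, and their hosts. Members outside this rule are marked as chosen after their values were seen. Alternatives were another pseudocount (0.1), filter, threshold, scaling, voom on reads, fits of 2 groups, a replicate block and each library left out. Members on 1 chromosome are given without coordinates, and 1 snoRNA that the rule names is not reported here.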

Additional observations from a re-analysis of the deposited data

How the results depend on the processing

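Of 1098 combinations of a named member's comparison with an alternative, 961 kept direction and call, 131 kept direction and lost the call, and 6 reversed, over 48 member comparisons. The reversals were Snord104 in DOX vs Unt (-0.533 under TPM, -0.123 under scaling to all reads, -0.309 under quantile normalization), Rnu1a1 in DOX vs Unt (-0.091, TPM) and Snord91a and Snord17 in D_DXZ vs Unt (-0.23 and -0.216, TPM). With all 54345 genes tested, 12 of the 48 calls were lost. The cause was not tested, apart from what each setting changes by construction. Counts of members called were as follows. DOX vs Unt had 8 higher under TPM, and 28 lower with no filter, 85 under TPM and 33 by voom. D_DXZ vs Unt had 26 higher at an unadjusted p, and 8 each with no filter, under TPM and under scaling to all reads, and 21 lower with no filter, 78 under TPM, 56 under scaling to all reads and 23 by voom. D_MgHCF vs Unt had 35 higher at an unadjusted p, 10 with a minimum 2-fold change and 7 with FPKM of at least 1, and 19 lower with the fold minimum and 16 with no filter. D_DXZ vs DOX had 20 higher and 8 lower at an unadjusted p, 2 lower with a pseudocount of 0.1 and 1 lower under quantile normalization. D_MgHCF vs DOX had 21 higher with the fold minimum, 24 with FPKM of at least 1, 22 with no filter, 69 under TPM, 22 under quantile normalization and 17 by voom, and 17 lower with no filter, 10 under TPM and 14 under scaling to all reads.

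Members called with their host in DOX vs Unt numbered 19 at an unadjusted p, 5 with the fold minimum, 6 with no filter, 42 under TPM, 30 under scaling to all reads and 17 under quantile normalization, and those called against it 12 with no filter, 12 under TPM and 10 under quantile normalization. In D_MgHCF vs Unt, 6 were called with the host under the fold minimum, 7 with no filter and 8 in a fit of 2 groups, and against it 0, 1 and 0, with 1 under FPKM of at least 1 and 4 under TPM. Summed levels rescaled by TPM were 561.18 in Unt, 205.52 in DOX, 243.13 in D_DXZ and 317.72 in D_MgHCF for snoRNAs, 22.77, 23.49, 26.42 and 13.59 for scaRNAs, and 118.37, 31.46 and 49.29 in Unt, DOX and D_DXZ for snRNAs. Without the top member the snoRNA sum was 329.18 in Unt, 279.43 in DOX and 307.48 in D_DXZ, and the scaRNA sum 20.06 in DOX and 21.91 in D_DXZ. The top scaRNA is Gm23119, so this last sum still holds Scarna2.

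With each library left out, members called higher and lower ranged over 11 to 20 and 36 to 58 in DOX vs Unt, 8 to 19 and 24 to 44 in D_DXZ vs Unt, 16 to 40 and 23 to 36 in D_MgHCF vs Unt, 0 to 0 and 0 to 1 in D_DXZ vs DOX, and 27 to 48 and 19 to 27 in D_MgHCF vs DOX. Members called with and against the host ranged over 6 to 18 and 14 to 22 in DOX vs Unt and 7 to 19 and 1 to 3 in D_MgHCF vs Unt. The replicate numbers gave no clear pairing of the libraries. Deviations of same-numbered libraries correlated at -0.39 to 0.39, those of other numbers at -0.403 to 0.313, and 6 of 12 libraries correlated best with their own number. With 3 libraries per group, this check cannot exclude a pairing. With a replicate block, 16 rose and 48 fell in DOX vs Unt, 14 and 32 in D_DXZ vs Unt, 22 and 28 in D_MgHCF vs Unt, 0 and 0 in D_DXZ vs DOX, and 37 and 26 in D_MgHCF vs DOX, and 4 of the 48 named calls did not pass (Gm24494 in D_DXZ vs Unt, Gm24644 in DOX vs Unt, Gm22009 in D_MgHCF vs DOX and Snord104 in D_MgHCF vs Unt). Depth limits every result, as 178 members averaged under 1 read per library.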
